A study of Caenorhabditis elegans with 2 samples.

Results

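The proteasome subunit genes of Caenorhabditis elegans were taken as every protein-coding gene of the annotation with a symbol starting pas-, pbs-, rpt- or rpn-, which gave 33 of 19973 genes on the 6 nuclear chromosomes. Of these, 19 encode the regulatory particle (6 rpt and 13 rpn genes) and 14 the core particle (7 pas and 7 pbs genes). Binding was read from chromatin immunoprecipitation and sequencing (ChIP-seq) of eGFP-tagged NHR-10, a nuclear hormone receptor, in whole L4 larvae with males and females pooled. The worms were strain OP239, which carries the inserted array wgIs239 in an unc-119(ed3) mutant background. There was 1 group of 2 biological replicates and no second condition. Whole animals were used, so a region cannot be placed in a tissue, and the labels do not name the promoter that drives the transgene.

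The proteasome degrades proteins that carry ubiquitin chains. Its core is a barrel of alpha rings, built from PAS proteins, around beta rings, built from PBS proteins, with the proteolytic sites inside. The regulatory particle caps the barrel. Its base holds a ring of RPT ATPases that unfold substrates, and its lid is made of RPN proteins, among them the deubiquitinase RPN-11. In worms, SKN-1 raises the expression of proteasome genes when proteasome function fails.

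A gene was counted as having a region when a region's summit lay from 1000 bp upstream to 200 bp downstream of one of its transcript starts, and its best region was the one of highest signal, the authors' own value, whose scale is not stated. Signals were compared within a list only, and ranks run from 1 for the strongest region. On the ce11 build the lists held 21319 regions for replicate 1, 22317 for replicate 2 and 17445 for both replicates together (the pooled list). The optimal list held 994 regions, which were the 994 strongest of the pooled list. The other lists hold background regions as well, so a region with a low rank is weak evidence of binding. The lists give no read counts, so depth was unknown.

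The sequences below were shown because they lay at the summit of the strongest region of any subunit gene (rpn-3), at the 3 subunit regions outside annotated UTRs that held a SKN-1 type word (pas-6, rpn-1 and rpt-2), and at the strongest regions of the wider pathway (cdc-48.1 and skn-1). Each is the plus strand of WBcel235 (ce11) from 50 bp before to 50 bp after the pooled summit, and capitals mark TGTCAT, the related word TATCAT, or the GATA type word TGATAA, on either strand.
rpn-3, III:8447128-8447228: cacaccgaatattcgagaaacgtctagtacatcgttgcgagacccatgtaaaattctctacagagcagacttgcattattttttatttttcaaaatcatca
pas-6, V:5584490-5584590: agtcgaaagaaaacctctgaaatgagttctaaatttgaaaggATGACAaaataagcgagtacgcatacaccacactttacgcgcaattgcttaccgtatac
rpn-1, IV:6910135-6910235: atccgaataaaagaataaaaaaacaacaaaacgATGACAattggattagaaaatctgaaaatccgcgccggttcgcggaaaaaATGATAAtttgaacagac
rpt-2, V:6017784-6017884: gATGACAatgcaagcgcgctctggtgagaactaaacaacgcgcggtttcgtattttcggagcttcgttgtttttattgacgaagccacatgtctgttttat
cdc-48.1, II:10563520-10563620: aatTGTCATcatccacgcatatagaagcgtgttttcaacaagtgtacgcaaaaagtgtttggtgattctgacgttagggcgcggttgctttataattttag
skn-1, IV:5656140-5656240: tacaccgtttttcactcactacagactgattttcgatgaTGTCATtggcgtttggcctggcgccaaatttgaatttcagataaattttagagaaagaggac

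An optimal region was rare at proteasome genes, as at all protein-coding genes, while most genes of the regulatory particle had some region. An optimal summit lay at 2 of the 33 genes (6.06%), rpn-3 of the lid and pas-5 of the alpha ring, against 2.82% of all protein-coding genes (563 of 19973). A pooled summit lay at 21 of the 33 (63.6%), against 28.1% of all protein-coding genes (5606 of 19973). Within the regulatory particle 16 of 19 genes had one (84.2%), and within the core 5 of 14 (35.7%). No test of this difference was made.

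The same order between the particles was seen in each replicate list, though the gap was narrower in replicate 2. In replicate 1, 15 of 19 regulatory particle genes and 5 of 14 core genes had a summit, against 32.02% of all protein-coding genes. In replicate 2, 14 of 19 regulatory particle genes and 7 of 14 core genes had one, against 31.9%. A summit of each replicate list lay at 11 of 19 regulatory particle genes and 3 of 14 core genes, against 19.5% of all protein-coding genes. The summits counted so need not mark the same site. The best summits of replicate 1 and replicate 2 lay 95 and 944 bp upstream at rpt-6, and 193 and 824 bp upstream at rpn-9. The core shares in the pooled list (35.7%), in replicate 1 (35.7%) and in both replicates (21.4%) were thus close to those of all genes, and the core share in replicate 2 (50%) was above.

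**Figure D1:**
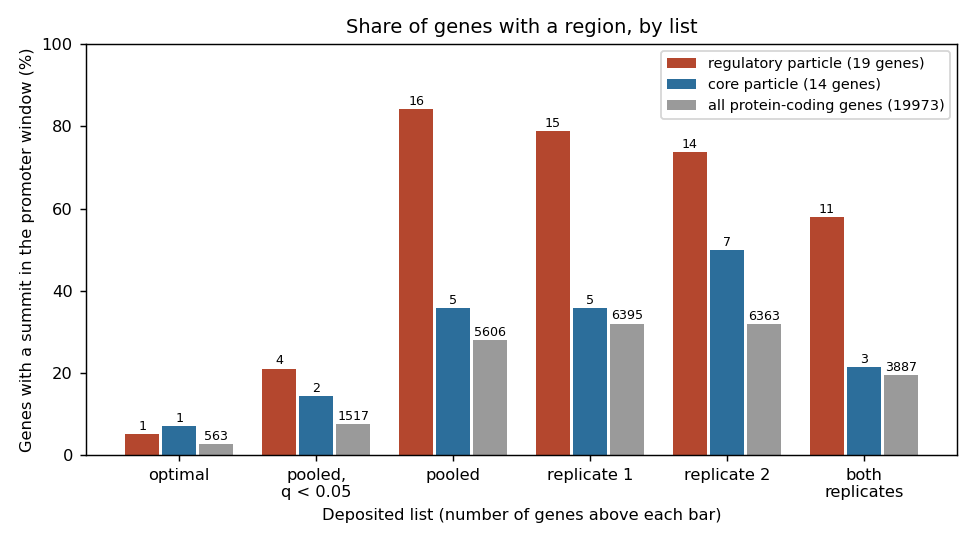
Share of genes with a summit in the promoter window (y axis, %) in each deposited list (x axis) for the 19 regulatory particle genes, the 14 core particle genes and all 19973 protein-coding genes, with the number of genes above each bar. In the pooled list the regulatory particle stands at 84.2%, the core at 35.7% and all genes at 28.1%, while in the optimal list 1 gene of each particle is counted.

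Most of the regions at both particles were weak. Among genes with a pooled region, the median rank of the best one was 7815 in the regulatory particle (16 genes), 7175 in the core (5 genes) and 6890.5 over all protein-coding genes with a region (5606 genes). Median pooled signals were 21.4 in the regulatory particle, 22.2 in the core and 22.5 over all genes with a region. Pooled ranks ran from 455 to 15157 in the regulatory particle and from 948 to 15977 in the core. The replicates gave the medians the other way round from the pooled list. In replicate 1 the median rank was 7196 in the regulatory particle (15 genes) and 9448 in the core (5 genes), and in replicate 2 it was 5952 in the regulatory particle (14 genes) and 14783 in the core (7 genes), so no order of strength between the particles held in every list. With the pooled regions restricted to a deposited q-value under 0.05, a rule added after the values were seen, 4 of 19 regulatory particle genes (21.1%) and 2 of 14 core genes (14.3%) had one, against 7.595% of all protein-coding genes. These 6 genes were rpn-3, rpn-5, rpn-8, rpn-12, pas-5 and pbs-3.

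**Figure D2:**
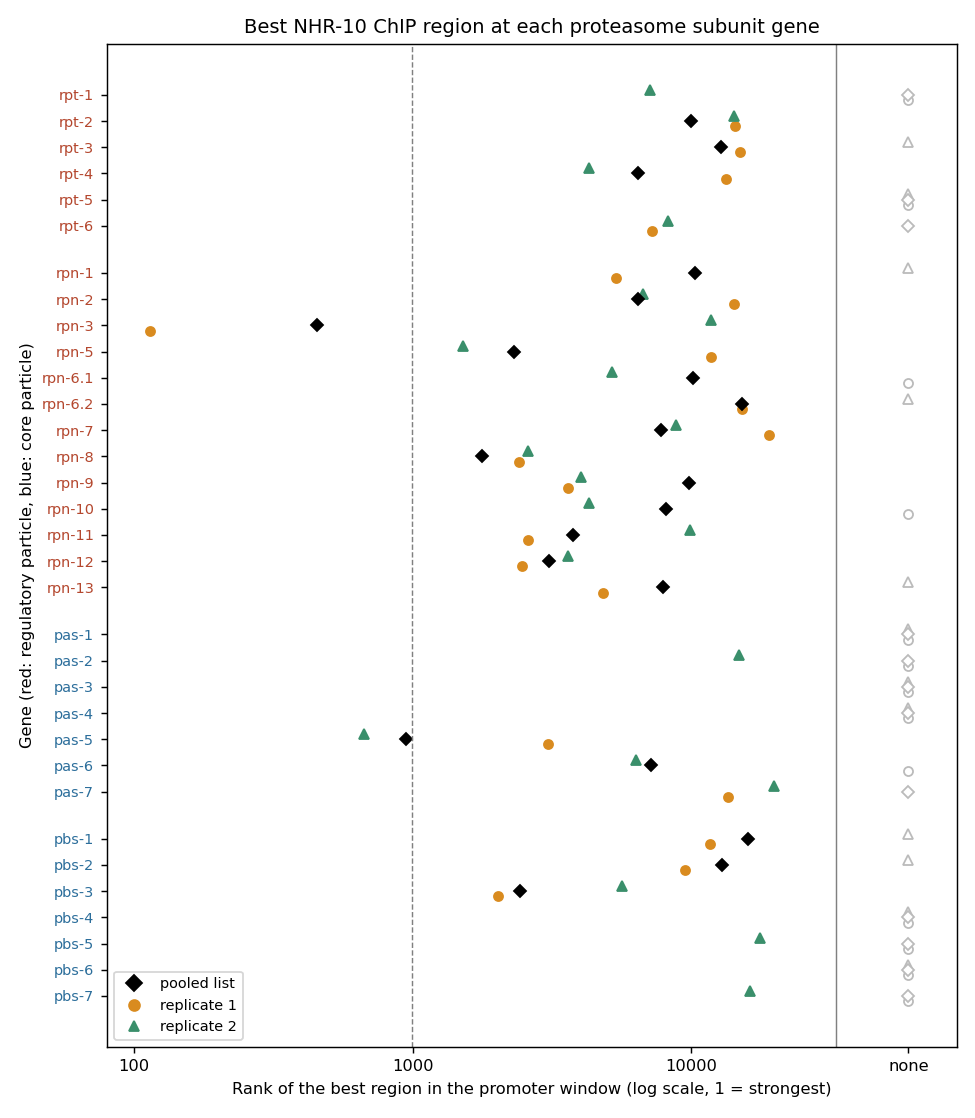
Rank of the best region in the promoter window (x axis, log scale, 1 is the strongest) of every subunit gene (y axis) in the pooled list and in each replicate, with open symbols under "none" where a list had no summit there and a dashed line at rank 994. Pooled ranks left of the line belong to rpn-3 (455) and pas-5 (948). Every rpn gene has a pooled region, against 28.1% of all protein-coding genes.

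All 13 rpn genes had a pooled region, against 28.1% of all protein-coding genes. The gene of the lid subunit RPN-3 (rpn-3, WBGene00004460) had the best region of all members, on chromosome III from 8446966 to 8447389, with an intergenic summit 175 bp upstream of its start and a pooled signal of 66.8. The summit also lay in the window of hsp-110, the divergent neighbour, which encodes a chaperone of the Hsp110 family. The 2 replicates differed widely here. In replicate 1 the region had a signal of 55.6 and ranked 114, and in replicate 2 the overlapping region had a signal of 8.61 and ranked 18429 of 22317. The best replicate 2 summit in the window, 695 bp upstream, had a signal of 10.7 and ranked 11742. The rpn-3 region was thus strong in replicate 1 and near the bottom of the list in replicate 2, although the summits were 1 position apart, 176 and 175 bp upstream of the start.

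The other lid genes had weaker regions. The gene rpn-8, for the partner of the deubiquitinase, had a pooled signal of 39.5 (rank 1766), with 19.03 in replicate 1 (rank 2402) and 19.7 in replicate 2 (rank 2602). Both replicates thus ranked it alike, and mrps-6, a mitochondrial ribosomal protein gene, shared the summit 302 bp upstream. The lid subunit gene rpn-5 had a pooled signal of 35.4 (rank 2313), with 10.3 in replicate 1 (rank 11747) and 24.1 in replicate 2 (rank 1517), so its region was mainly that of replicate 2. It lay between rpn-5 and scc-1, which encodes a cohesin subunit.

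The lid subunit gene rpn-12 had a pooled signal of 31.3 (rank 3087), with 18.9 in replicate 1 (rank 2464) and 17.3 in replicate 2 (rank 3616). The pooled and replicate 2 summits lay in a coding exon 443 bp upstream of the start. The replicate 1 summit was intergenic, 218 bp upstream, and the rpn-12 window held 2 pooled regions. These summits lay in the window of rad-23 as well, which encodes a shuttle protein that carries ubiquitinated substrates to the proteasome. The deubiquitinase gene rpn-11 had a pooled signal of 28.99 (rank 3750), with 18.5 in replicate 1 (rank 2601) and 11.6 in replicate 2 (rank 9848). Its summit lay 81 bp downstream of the nearest start. The remaining lid genes rpn-7, rpn-9, rpn-6.1 and rpn-6.2, the last a paralog of rpn-6.1, had pooled signals of 21.5, 19.5, 19.2 and 16.1. The rpn-6.2 summit lay in an intron, 359 bp downstream of the nearest start, and was counted through the window of its other start. The lid genes with a pooled region thus had a median rank of 3750 (9 of 9 genes), against 8074 for the base genes (7 of 10). This grouping was made after the values were seen. Of all protein-coding genes 28.1% had a pooled region, with a median rank of 6890.5.

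No optimal summit lay at any of the 10 base genes, against 2.82% of all protein-coding genes. At so low a share, none among 10 genes does not set the base apart. A pooled region, found at 28.1% of all protein-coding genes, lay at all the non-ATPase base genes. These were the scaffolds rpn-2 (signal 23.2) and rpn-1 (19.1) and the ubiquitin receptors rpn-13 (21.3) and rpn-10 (21.1). Of these 4, rpn-2 had a region of both replicates in its window, with signals of 9.42 in replicate 1 and 13.6 in replicate 2. Each of the others had one of a single replicate. Over all protein-coding genes 19.5% had a region of both replicates. Of the 6 ATPase genes, rpt-4 (23.2), rpt-2 (19.3) and rpt-3 (17.4) had a pooled region and rpt-1, rpt-5 and rpt-6 had none. At rpt-4 the overlapping regions had signals of 9.54 in replicate 1 and 16.2 in replicate 2, and at rpt-2 they had 9.401 in replicate 1 and 9.81 in replicate 2, so both genes had weak regions. The rpt-6 window held a different region in each replicate. That of replicate 1 lay 95 bp upstream of the start (signal 12.5, rank 7196). That of replicate 2 lay 944 bp upstream (signal 12.5, rank 8205) and did not overlap it, and its summit was also in the window of his-72. The rpt-1 window held a region in replicate 2 (13.3, rank 7101). The rpt-5 window held a region in no list.

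The core genes with a pooled region, 5 of 14 against 28.1% of all protein-coding genes, were unlike each other. The beta ring gene pbs-3 had a pooled signal of 34.7 (rank 2435), with 20.3 in replicate 1 (rank 2025) and 14.5 in replicate 2 (rank 5656). Its summit lay 267 bp upstream of the start, in the 3' UTR of ulp-2, a gene on the same strand that ends 22 bp before pbs-3. The other beta ring genes with a pooled region were pbs-2 (signal 17.3, shared with the translation factor gene eif-6) and pbs-1 (15.6, shared with K08D12.3 and rpi-2). Both had a replicate 1 region (11.3 and 10.3) and none in replicate 2.

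Among alpha ring genes, pas-5 (WBGene00003926) had a pooled region at rank 948 with a signal of 50.6, close to the lowest optimal signal (49.6), and a summit 919 bp upstream of its start. In replicate 2 the region had a signal of 32.8 and ranked 669. In replicate 1 the strongest region that overlapped the pooled one had a signal of 38.7 and ranked 347, but its summit lay 1114 bp upstream, outside the window. The best replicate 1 region within the window had a signal of 17.5 and ranked 3059. Its summit, 908 bp upstream, was the closer of these to the pooled summit. The pas-5 region was therefore among the 994 strongest of both replicates only when regions were matched by overlap, and not by the closer replicate 1 summit. Its assignment to pas-5 rests on the far end of the window, and with 500 bp upstream it was lost. The next gene upstream, ubc-25, lay on the same strand and ended 1446 bp away. The other alpha ring gene with a pooled region, pas-6, had a signal of 22.2 (rank 7175), with none in replicate 1 and 13.9 in replicate 2.

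No list held a region at 6 of the 33 genes, against 54.9% of all protein-coding genes. They were pas-1, pas-3, pas-4, pbs-4 and pbs-6 of the core and rpt-5 of the regulatory particle. A further 6 had no pooled region but one in a replicate list, namely pas-2, pbs-5, pbs-7 and rpt-1 in replicate 2 alone and pas-7 and rpt-6 in both. Their signals there ran from 8.296 (pas-7, replicate 2) to 13.3 (rpt-1, replicate 2), where the lowest of that list was 7.76. The nearest pooled summit lay 1188 bp from the start of pas-1, 1206 bp from that of pas-3 and 847 bp from that of pbs-6, and 11171 bp from that of rpt-5.

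Support by both replicates was found at a share of members near that of all genes. Of the 21 best pooled regions, 12 overlapped a region of both replicates by at least 1 bp (57.1%), 6 only one of replicate 1 (28.6%) and 3 only one of replicate 2 (14.3%). Over all protein-coding genes with a pooled region 59.7% overlapped both, 18.5% only replicate 1 and 19.1% only replicate 2. The overlap does not require a replicate summit in the window. At rpt-3 the replicate 2 region had its summit 1208 bp upstream, outside the window, and ranked 20155 of 22317. In the regulatory particle 10 of 16 overlapped both, and in the core 2 of 5, pas-5 and pbs-3. Among the 994 strongest regions of replicate 1, rpn-3 alone had a summit in its window, against 2.82% of all protein-coding genes. Among the 994 strongest of replicate 2, pas-5 alone did, against 2.71%. No member had a summit among the strongest of both, against 1.55% of all protein-coding genes.

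**Figure D3:**
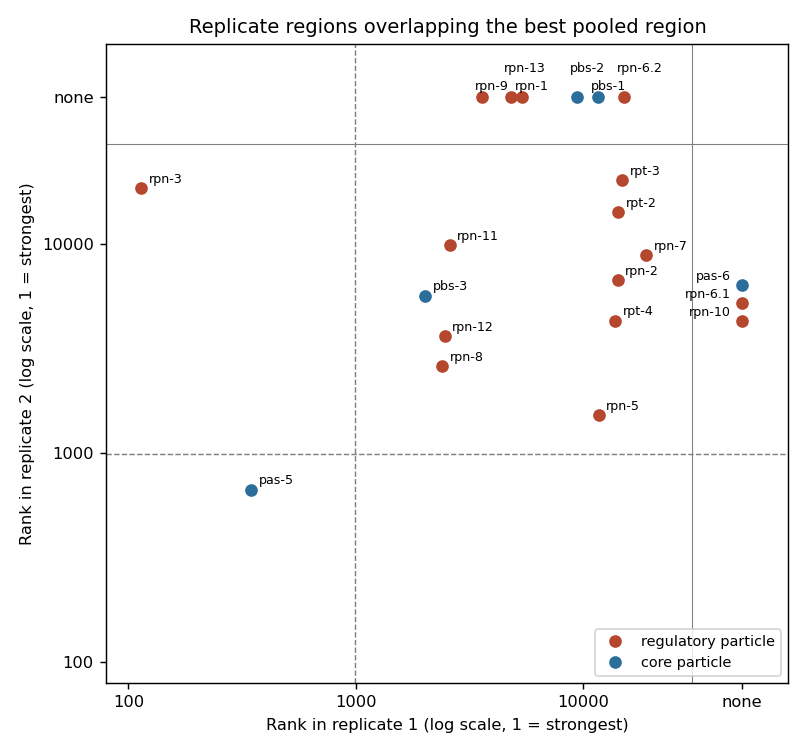
Rank in replicate 1 (x axis) and replicate 2 (y axis), both on log scales with 1 the strongest, of the region that overlaps each member's best pooled region, with dashed lines at rank 994 and "none" where a replicate had no overlapping region. The pas-5 point lies at 347 and 669, while rpn-3 lies at 114 in replicate 1 and 18429 in replicate 2. The replicate 1 region plotted for pas-5 has its summit 1114 bp upstream, and the one 908 bp upstream, closer to the pooled summit, ranks 3059.

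Most members' summits lay upstream of the starts, and many lay in the window of a neighbouring gene as well. Of the 21 best pooled summits, 19 lay upstream of the nearest start of their gene (90.5%), against 84.6% over all protein-coding genes with a pooled region. The exceptions were rpn-11 and rpn-6.2. The median position was 268 bp upstream, against 267 bp. For 13 of the 21 (61.9%) the summit also lay in the window of another protein-coding gene, against 27.8%. The shared genes included hsp-110, mrps-6, rad-23, ribo-1 (a subunit of the oligosaccharyltransferase) and aps-1 (a subunit of a clathrin adaptor complex). The gap to the next gene upstream was a median of 415 bp for the 33 members and 937 bp for all protein-coding genes. It was 443 bp in the regulatory particle and 326 bp in the core. Whether these short gaps bear on the counts was not tested, and a summit between 2 divergent starts cannot be given to one of them.

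**Figure D4:**
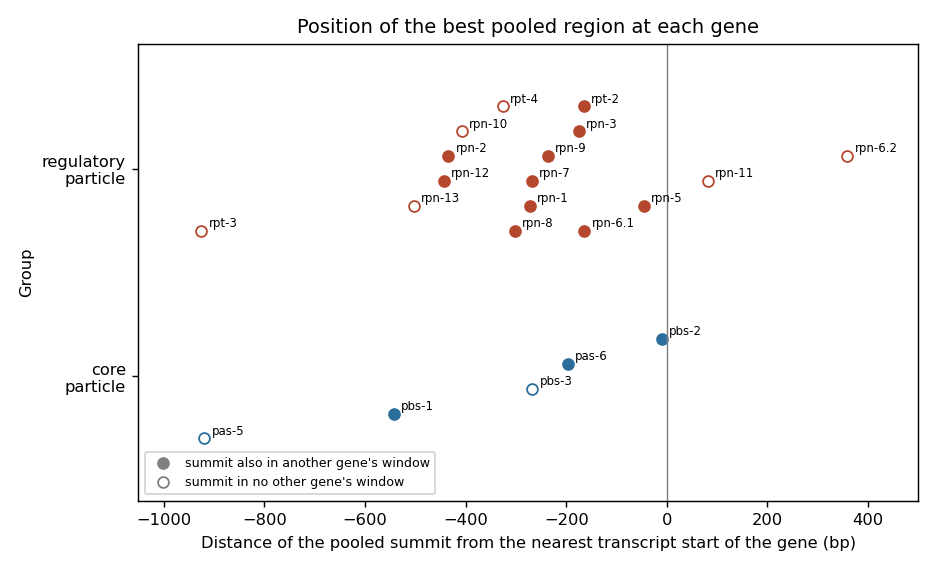
Distance of the best pooled summit from the nearest transcript start of its gene (x axis, bp, negative upstream) for the 16 regulatory particle genes and the 5 core genes with one, with vertical offsets for legibility only. Filled points share the summit with the window of another protein-coding gene (13 of 21). Within 500 bp of the start lie 17 of the 21 (80.95%), against 69.9% over all protein-coding genes with a pooled region.

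Window length, gene arrangement and chromosome were set beside the difference between the particles. The median window was 1201 bp in both, but genes with several starts had longer ones, up to 2402 bp in the regulatory particle and 1201 bp in the core. With only the most upstream start of each gene, an alternative added after the values were seen, 15 of 19 regulatory particle genes and 5 of 14 core genes had a pooled summit, against 25.3% of all protein-coding genes. A gene on the same strand ended less than 500 bp upstream, as in an operon, at 5 of 19 regulatory particle genes and 3 of 14 core genes (20.5% of all genes). All 5 of these regulatory particle genes and 1 of these 3 core genes had a pooled region, against 30.03% of all protein-coding genes so arranged. Among genes in other arrangements, 11 of 14 in the regulatory particle and 4 of 11 in the core had one, against 27.6%. Chromosome I held 7 of the 14 core genes and 3 of the 19 regulatory particle genes, and X held no member. Off chromosome I, 14 of 16 regulatory particle genes and 3 of 7 core genes had a pooled region, against 27.8% of all protein-coding genes there. The part of each of these in the difference was not tested further.

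Sequence around the summits set the members little apart. Within 50 bp of the summit, a SKN-1 type word (TGTCAT or TATCAT, either strand) was found at 4 of the 21 best pooled regions (19.05%), at rpn-1, rpn-6.1, rpt-2 and pas-6, against 13.4% of the 4843 best regions of all protein-coding genes. A GATA type word (TGATAA, either strand) was found at 2, rpn-1 and rpn-6.1, against 15.4%. A TATCAT can overlap a TTATCA, the other strand of TGATAA, and at rpn-1 they overlap, as printed above. The nuclear receptor word AGGTCA (either strand) was found at none of the 21, against 3.59%. An AP-1 or CRE type word (TGACTCA or TGACGTCA, either strand) was found at 1, pbs-2, against 2.13%. The rpn-3 window held none of these words, which says only that these letters are not in that window. The median GC content was 36.6% at the 21 members (18.8 to 46.5%) and 38.6% at all best promoter regions.

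In a list of regulators and partners of the proteasome, the strongest regions lay at cdc-48.1 and skn-1. Of 21 listed genes 20 were found in the annotation, 2 had an optimal summit, against 2.82% of all protein-coding genes, and 11 had a pooled one, against 28.1%. The list was chosen with earlier results of these data known. At cdc-48.1, which encodes the ATPase that extracts ubiquitinated proteins before degradation, the pooled signal was 200.5 (rank 21), with 106 in replicate 1 (rank 17) and 91.4 in replicate 2 (rank 28). At skn-1 the pooled signal was 81.03 (rank 274), with 41.7 in replicate 1 (rank 263) and 38.8 in replicate 2 (rank 412). Both regions therefore ranked high in each replicate and above every subunit gene in the pooled list. Both hold TGTCAT in the windows printed above. A SKN-1 type word was found at 13.4% of the best regions of all protein-coding genes, and at no other pathway gene with a pooled region.

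The other pathway genes with a pooled region had lower signals. The ubiquitin-activating enzyme gene uba-1 had a pooled signal of 38.9 (rank 1840), and the ubiquitin genes ubq-2 and ubq-1 had 36.4 (rank 2164) and 31.2 (rank 3116). The best region of the shuttle gene rad-23 (31.3, rank 3087) was the one counted for rpn-12 as well. The stress regulator gene pqm-1 (25.1), the ubiquitin ligase gene sel-11 (21.5), the deubiquitinase gene usp-14 (21.5), the chaperone gene psmd-9 (20.7) and the CDC-48 cofactor gene ufd-1 (16.6) had weaker ones. The small lid subunit gene dss-1, the deubiquitinase gene ubh-4, the cdc-48.1 paralog cdc-48.2 and the genes npl-4.1 and npl-4.2, which encode cofactors of CDC-48, had no pooled region in the window. Nor did ddi-1, png-1 and sel-1, which act on the processing or supply of SKN-1A, or hsf-1, the heat shock factor gene.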

How the data were processed

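NHR-10 ChIP-seq was analysed from 4 deposited narrowPeak lists on ce11, which is WBcel235. Per the descriptions deposited with the files, 1 list per replicate and 1 of both replicates hold peaks and background, and the optimal list was thresholded by the irreproducible discovery rate. All were derived with the same control alignment. No source used here names the peak caller, the aligner or the threshold. The deposited signal per region is the authors' own and was used within lists, and the deposited −log10 q-value was used for 1 added rule (above 1.301). The 2 repeated regions of the pooled list were counted once. Gene models were those of Ensembl 115, bases were read from the RefSeq assembly of that build, and the work was done in Python 3.11.15 and pandas 2.3.3. The members, windows, lists and pathway genes were chosen with earlier results of these data known. Named were all members with an optimal or strongest summit, the 3 highest per symbol family, members with no pooled region, genes sharing those summits, and pathway genes with an optimal summit. The other members and pathway genes, and the grouping into lid and base, were added after their values were seen. No test was run: there was 1 group, and genes are not replicates of a condition. The assignment was checked on planted summits. The ce10 lists were not used here, and no depth or interval could be given.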

Additional observations from a re-analysis of the deposited data

How the results depend on the processing

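With 1 group, no paired analysis was possible because no second group shares the replicate numbers. The count of 2 members with an optimal summit fell to 1 with the window of 500 bp upstream (rpn-3), to 1 with the stronger part of the optimal list (rpn-3), and to 1 with either replicate left out (lowest and highest 1). It stayed within 2 to 3 under the other 6 alternatives. The 21 members with a pooled summit became 6 with a q-value under 0.05, by fewer regions, and 16 to 26 otherwise, with 20 to 21 when a replicate was left out. More regulatory particle than core genes had a pooled summit under each alternative run. The regulatory particle has more genes (19) than the core (14), so a larger count is not by itself a larger share. At a q-value under 0.05 the counts were 4 and 2, against 7.595% of all protein-coding genes. Without replicate 1 they were 14 and 7, against 31.9%. At 500 bp upstream they were 13 and 3, against 20.97%. With the longer upstream window they were 18 and 8, against 36.6%. Each summit was also given to the nearest start at any distance, with no promoter window. By that rule 14 regulatory particle and 5 core genes had a pooled summit, against 42.1% of all protein-coding genes. The median rank of the regulatory particle was 7815 in the pooled list, 6454 there at 500 bp upstream, 5952 without replicate 1 and 7196 without replicate 2. That of the core was 7175 in the pooled list, 14783 without replicate 1 and 9448 without replicate 2. Leaving out a replicate means the other replicate's own list, which has another length and other genes with a region, so these ranks show no change of a median. The causes were not tested. No member had a summit among the strongest regions of both replicates under the 3 alternatives run. The shares of all protein-coding genes were 0.846% with fewer such regions, 3.004% with more and 1.41% with an overlap of 50%. None of these alternatives changed the window, and the pas-5 region of rank 347 in replicate 1 had its summit outside it. The lists hold no counts, so what depth limits is unknown.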
